A study of Mus musculus with 2 samples.

Results

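The genes of sterol and fatty acid synthesis were compared between cultured mouse neutrophils with and without miR-223, a microRNA that granulocytes hold in large amounts. The set was a list of 36 gene symbols: enzymes of cholesterol synthesis, the SREBP regulators, enzymes of fatty acid synthesis, desaturases, elongases and acyl-CoA synthetases. Of these, 35 had at least 1 probe set named for that gene alone, and Acsl1 had none and was not measured. The 35 genes carried 82 probe sets, and each gene took the one with the highest mean over both arrays. The arrays measured 18193 genes in all. Wild-type cells came from male C57BL/6 mice and knockout cells from male C57BL/6 mice labelled mir-223 knockout. The sources used here give no allele, age or number of animals. In both groups blood-forming progenitors had been grown for 6 days with the cytokines G-CSF and SCF, and cycloheximide, which stops ribosomes, was added at 100 ug/ml 8 min before harvest. With 1 Affymetrix 3' array per genotype there are no replicates, and no difference below could be tested.

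Cholesterol is made from acetyl-CoA through mevalonate, farnesyl diphosphate, squalene and lanosterol, and fatty acids are made from the same acetyl-CoA by carboxylation and chain building. Both pathways are driven by the SREBP transcription factors, which the escort protein Scap carries out of the endoplasmic reticulum when sterols are scarce and which the Insig proteins hold back when sterols are plentiful. In hepatic and other cells, Hmgcs1, Msmo1 and the lipoprotein receptor Scarb1 have been reported as direct targets of miR-223. In neutrophils, lipid synthesis supplies the membranes of a cell that packs itself with granules.

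The missing regulator and the control regions of 5 member genes are shown first. The promoters were picked to set members with higher and lower values beside each other. The mature arms of miR-223 in RefSeq (GRCm38.p6, chromosome X, plus strand) lie at chrX:96242884-96242905 for the 3p arm and chrX:96242842-96242864 for the 5p arm. Capitals mark the seed, bases 2 to 8, which pairs with messenger RNA.
mmu-miR-223-3p: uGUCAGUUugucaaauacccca
mmu-miR-223-5p: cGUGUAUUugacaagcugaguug
Transcript sequences were not used here, so matches to these seeds in the members were not counted.

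Below are the 250 bases before the RefSeq gene start of Hmgcs1 and Sc5d, the sterol enzymes with the largest positive differences, of Insig1, and of Hsd17b7 and Cyp51, 2 sterol enzymes with negative differences on all of their probe sets. Capitals mark 3 motifs on either strand: TCACNCCAC, a form of the sterol regulatory element bound by SREBP, CACGTG, an E-box, and CCAAT, the box bound by NF-Y, which acts beside SREBP.
Hmgcs1 (chr13:119690101-119690350, plus strand): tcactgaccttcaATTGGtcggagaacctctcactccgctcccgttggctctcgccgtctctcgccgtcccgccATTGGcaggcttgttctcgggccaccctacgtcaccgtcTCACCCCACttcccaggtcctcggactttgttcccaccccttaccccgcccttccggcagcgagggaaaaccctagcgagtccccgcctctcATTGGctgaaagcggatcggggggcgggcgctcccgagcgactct
Sc5d (chr9:42264301-42264550, minus strand): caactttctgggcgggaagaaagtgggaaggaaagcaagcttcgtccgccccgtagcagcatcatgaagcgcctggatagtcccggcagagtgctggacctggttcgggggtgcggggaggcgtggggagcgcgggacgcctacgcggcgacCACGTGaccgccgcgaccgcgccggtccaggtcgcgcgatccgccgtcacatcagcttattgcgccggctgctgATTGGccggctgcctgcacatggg
Insig1 (chr5:28071162-28071411, plus strand): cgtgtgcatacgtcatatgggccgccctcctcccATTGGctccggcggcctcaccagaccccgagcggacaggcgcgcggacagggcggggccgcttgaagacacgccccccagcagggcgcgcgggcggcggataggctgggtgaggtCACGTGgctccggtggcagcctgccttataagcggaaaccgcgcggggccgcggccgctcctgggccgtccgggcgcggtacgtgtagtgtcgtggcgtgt
Hsd17b7 (chr1:169969206-169969455, minus strand): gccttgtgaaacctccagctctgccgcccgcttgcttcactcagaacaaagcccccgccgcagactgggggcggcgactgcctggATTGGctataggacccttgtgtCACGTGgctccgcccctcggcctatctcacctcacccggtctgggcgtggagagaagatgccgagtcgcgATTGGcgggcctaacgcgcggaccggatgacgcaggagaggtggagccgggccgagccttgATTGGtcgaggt
Cyp51 (chr5:4104698-4104947, minus strand): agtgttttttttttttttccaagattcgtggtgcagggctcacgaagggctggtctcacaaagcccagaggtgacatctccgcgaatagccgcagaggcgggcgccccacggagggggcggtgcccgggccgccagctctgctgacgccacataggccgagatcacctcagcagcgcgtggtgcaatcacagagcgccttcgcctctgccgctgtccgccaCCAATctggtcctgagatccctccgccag
Coordinates are those of GRCm38.p6 and each sequence reads towards the gene start.

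Promoter windows were available for 30 of the 36 listed genes. Scd1, Scd2, Fdps, Fdft1, Sqle and Fads1 had none and were not searched. The CCAAT box was present in 24 of the 30 (80.0%), against 37.5% of all 27025 genes with a window and 40.4% of the 8980 of them expressed here. The E-box was present in 6 of 30 (20.0%), against 10.04% of expressed genes: Hsd17b7, Sc5d, Dhcr7, Insig1, Scap and Elovl5. The string TCACNCCAC was present in Hmgcs1 and in the unmeasured Acsl1 (6.67%), against 1.22% of expressed genes. Other forms of the sterol regulatory element were not searched for, so a window without this string may still hold one. No copies of different motifs overlapped in the members. The match in Hmgcs1 lay 137 to 129 bases before the start. As deposited, genes with the same motif stood on both sides of 0: of the 6 with an E-box, Sc5d (0.36), Scap (0.28), Insig1 (0.22) and Dhcr7 (0.15) were above 0, and Hsd17b7 (-0.078) and Elovl5 (-0.088) below (log2 differences, explained next). Both of the latter turned positive when centred on spike-in controls, to 0.030 and 0.020 with hybridization controls and to 0.095 and 0.085 with poly-A controls. A match is a string of letters in a window and shows no binding.

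Every difference is the knockout array's log2(intensity + 16) minus that of the wild-type array, in which the pseudocount of 16 shrinks differences of dim genes. A gene counted as expressed when its mean over both arrays was at or above the median of all probe sets, an intensity of 33.9. All 35 measured members were expressed, among 11006 expressed genes. The intensities of different genes cannot be compared with each other, since each probe set binds with its own strength. The number of arrays limits all precision. A spread could be taken only between probe sets of 1 gene, with a pooled SD of 0.144 over all genes and of 0.136 over the members, which is not a replicate error. Neutrophil markers checked the label: all 10 listed were expressed, with a summed intensity of 140306 in wild type and 148514 in the knockout. Their median difference was 0.13, and 9 of the 10 lay above 0. Itgam stood at 0.65, Cd177 at 0.59, Csf3r at 0.33 and Camp at -0.29, and the sum is carried by the brightest probe sets.

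Most members differed little between the arrays. Of the 35, 24 were above 0 and 11 below, where 49.7% of all expressed genes were above 0. The members' median difference was 0.044, against -0.00037 for all expressed genes, and 27 members lay within 0.2 of 0 (77.1%, against 79.6% of all expressed genes). A difference of at least 0.32 in size, which is a change of at least 25% upwards, was counted. By it, 3 members were higher in the knockout array: Scd1, Sc5d and Scd2. They are 8.57% of the members, against 4.4% of all expressed genes, a difference of about 1 or 2 genes in a list of this length. No member was lower by that much, where 2.39% of all expressed genes were. By at least 1.5-fold, Scd1 alone was higher (0.691% of expressed genes) and none was lower (0.391%). Among the 6768 genes above the 75th percentile of all probe sets, which hold 33 of the members, 2 members (6.06%) and 4.09% of all genes were higher by at least 0.32. In the plot of members among all expressed genes, the members lie inside the grey cloud and Scd1 stands out.

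**Figure D1:**
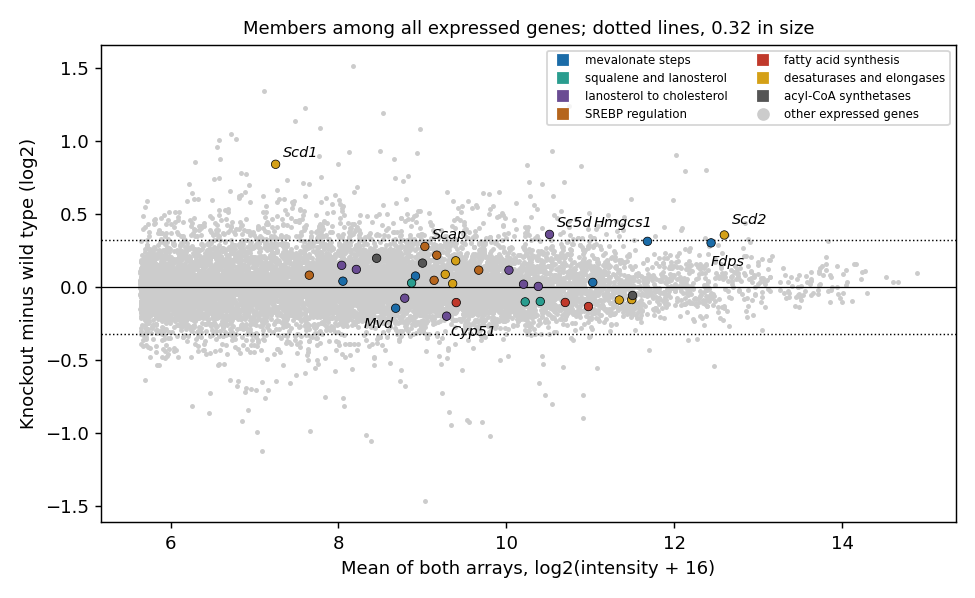
Each grey point is 1 of 11006 expressed genes, with the mean of both arrays on the x axis and the knockout minus wild type difference on the y axis, both in log2(intensity + 16). Coloured points are the 35 measured members by role and dotted lines mark a difference of 0.32: Scd1 (0.84), Sc5d (0.36) and Scd2 (0.35) lie above the upper line and no member lies below the lower one.

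The scale itself limits how small differences can be read. The knockout array gave lower signals of the spike-in controls, with a median difference of -0.11 for 18 hybridization probe sets and -0.17 for 24 poly-A probe sets. Centring on them adds 0.11 or 0.17 to every gene, members and background alike. The median over all expressed genes then becomes 0.11 or 0.17, and that of the members 0.15 or 0.22. The count higher by at least 0.32 becomes 7 members (10.7% of expressed genes) or 10 members (17.99%). The number of members below 0 falls to 3 or 1. Directions of the small negative differences below therefore hold only for the values as deposited or relative to the median gene. The smallest positive differences depend on the scale too: under quantile normalization Lss, Ebp and Elovl6 fell to -0.0052, -0.019 and -0.0089.

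**Figure D2:**
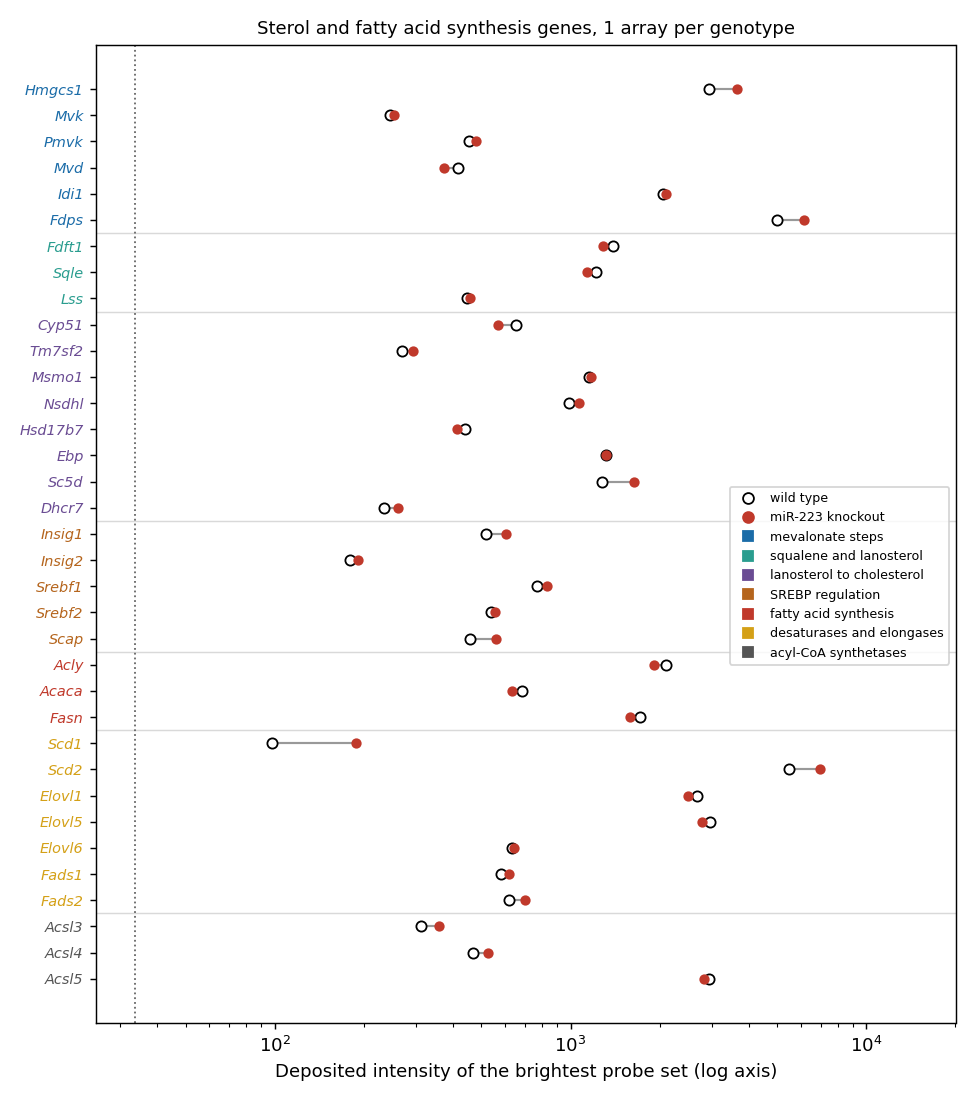
Deposited intensity (x axis, log scale) of the probe set used for each of the 35 members, on the wild-type array (open circles) and the knockout array (red circles), 1 array each. Names are coloured by role and the dotted line is the expression level of 33.9; the pairs of circles lie close together except for Scd1 (98.0 and 188), and Hmgcs1, Fdps, Sc5d, Scap and Scd2 are visibly to the right in the knockout.

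The mevalonate steps, which turn acetyl-CoA into farnesyl diphosphate, were unevenly placed, with the first and last enzymes higher and those between near 0. Hmgcs1, the synthase that makes HMG-CoA, read 2930.4 in intensity in wild type and 3639 in the knockout. Its difference was 0.31, a ratio of 1.24, just under the mark of 0.32. It was the best covered member: all 5 of its probe sets were expressed and higher, from 0.16 to 0.47. The next brightest probe set read 2511 and 3436 (0.45). With the mean of its probe sets Hmgcs1 passed the mark, in place of Sc5d.

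Fdps, which makes farnesyl diphosphate, read 4982 in wild type and 6140.4 in the knockout (0.30). Its other probe set was not expressed, at about 6 on both arrays (5.98 and 6.05), so a single probe set carries this value. Mvk and Pmvk, the kinases that phosphorylate mevalonate in turn, stood at 0.038 and 0.073. Idi1, the isomerase of isopentenyl diphosphate, read 2052 and 2095 (0.030). Mvd, the decarboxylase of the pathway, was on the other side of 0, with 416 and 374 (-0.15) on its brighter probe set, 308 and 284 (-0.11) on its dimmer, and at 0.027 when centred on poly-A controls. The median of the 6 genes was 0.056.

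Squalene and lanosterol synthesis did not share the higher values at both ends of the mevalonate steps. Fdft1, which joins farnesyl units into squalene, read 1386 in wild type and 1292 in the knockout (-0.10), and its other expressed probe set also gave -0.10. Sqle, the epoxidase of squalene and a flux-controlling step, read 1223 and 1138 (-0.10). Lss, the cyclase that forms lanosterol, read 448 and 457 (0.026). The median of the 3 was -0.10, turning to 0.0078 or 0.073 when centred on hybridization or poly-A controls. All 3 were smaller in size than the pooled SD between probe sets (0.144), which is not a replicate error.

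The 8 enzymes from lanosterol to cholesterol had a median of 0.066 and held both the highest and the lowest sterol enzyme. Sc5d, the desaturase that introduces a double bond in the sterol ring, read 1275 in wild type and 1639 in the knockout (0.36, ratio 1.29). Its other probe sets read 196 and 241 (0.28) and 63.6 and 69.5 (0.10). All 3 were thus higher in the knockout, the dimmest least. Sc5d ranked 360 from the top of 11006 expressed genes.

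Cyp51, the lanosterol demethylase that opens this branch, was the lowest of all members. It read 654 in wild type and 567 in the knockout (-0.20), and its other expressed probe set read 188 and 160 (-0.21). It was the only one of the 35 below 0 under all 13 settings tried, and reached -0.028 when centred on poly-A controls. That centring adds 0.17 to every gene and put all other members above 0, so this restates that Cyp51 was the lowest. Among the 13 settings, a change of pseudocount or filter cannot turn the sign of a probe set's difference. Hsd17b7, a reductase of the demethylation complex, was lower on all 4 of its probe sets, from -0.27 to -0.078, though its brightest turned positive under spike-in centring, as given above. That brightest one read 439 and 415.

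The remaining enzymes of this branch were near 0 or slightly above. Msmo1, the methyl oxidase reported as a miR-223 target, read 1157 in wild type and 1171 in the knockout (0.018). Its dimmer probe set pointed the other way, with 61.1 and 51.1 (-0.20). Ebp, a sterol isomerase, was at 0.0026, with 1316 and 1318. Tm7sf2, a sterol reductase (0.12), Nsdhl, the dehydrogenase that works beside Msmo1 (0.11), and Dhcr7, the reductase of the last step (0.15), each rested on 1 probe set. The 17 sterol enzymes together ranged from -0.20 to 0.36, with 12 above 0 and 5 below as deposited (49.7% of all expressed genes above 0). That split depends on the scale: 10 were above 0 after quantile normalization (45.5% of all), 15 when centred on hybridization controls (78.0%) and 16 on poly-A controls (88.7%).

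All 5 SREBP regulators were above 0 as deposited, with a median of 0.11, where 49.7% of all expressed genes were above 0. They were also above 0 with every scaling tried, though under centring on hybridization or poly-A controls 78.0% or 88.7% of all expressed genes were. Scap, the escort protein, read 459 in wild type and 559 in the knockout (0.28). Its second probe set was not expressed (18.1 on both arrays). Insig1, the sterol-induced retention protein and itself a target gene of SREBP, read 519 and 605 (0.22) on its single probe set. Srebf1, the factor weighted to fatty acid genes, read 768 and 832 (0.11). Srebf2, the factor weighted to sterol genes, read 539 and 557 (0.044), with 0.13 on its other probe set. Insig2, the second retention protein, gave 0.080 and -0.13 on 2 probe sets of similar brightness and 0.16 on a dimmer one, so its sign was not reproduced. Over second probe sets, expressed for Srebf2 and Insig2 only, the median was 1.8e-05, with 1 above 0 and 1 below. The activity of these proteins depends on cleavage and transport, which messenger RNA levels do not measure.

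The 3 enzymes that build the fatty acid chain all lay slightly below 0 as deposited, with values close to each other. Acly, which supplies cytosolic acetyl-CoA from citrate, read 2097 in wild type and 1908 in the knockout (-0.13). Its other expressed probe sets gave -0.093 and 0.043. Acaca, the rate-limiting acetyl-CoA carboxylase, read 687 and 636 (-0.11). Fasn, the synthase that assembles palmitate, read 1711 and 1588 (-0.11). Each difference was smaller in size than the pooled SD between probe sets (0.144), which is not a replicate error. The median of -0.11 became 0.00035 or 0.065 when centred on hybridization or poly-A controls.

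The stearoyl-CoA desaturases, which place the first double bond in saturated fatty acids, included the largest difference of the set, that of Scd1, and Scd2, whose difference was next after that of Sc5d. Scd1 read 98.0 in wild type and 188 in the knockout (0.84, ratio 1.92) and ranked 23 from the top of all expressed genes. Its second probe set, near the expression level, read 32.1 and 43.1 (0.30). With a pseudocount of 64 Scd1 stood at 0.64, and with the mean of its probe sets at 0.57. Both probe sets were higher in the knockout, but the size depends on which is read.

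Scd2, the isoform of the same enzyme, was higher on all 3 of its probe sets. The brightest read 5457 in wild type and 6981 in the knockout (0.35). The second read 1890 and 2780 (0.55), and the dimmest read 501 and 999.8 (0.97, close to 2-fold). The difference was larger on each dimmer probe set, so the value of the brightest is the smallest of the 3. Scd2 was higher by at least 0.32 with all 13 settings tried. Some of these could not move it: with either change of filter and without shared-suffix probe sets it stayed at 0.35. Centring on hybridization controls, poly-A controls or array medians added to every gene and raised it to 0.46, 0.53 or 0.37. Pseudocounts of 1 and 64 hardly move so bright a probe set (0.36 and 0.35). Scd1 and Scd2 are close relatives, and whether their probe sets share sequence was not tested.

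**Figure D3:**
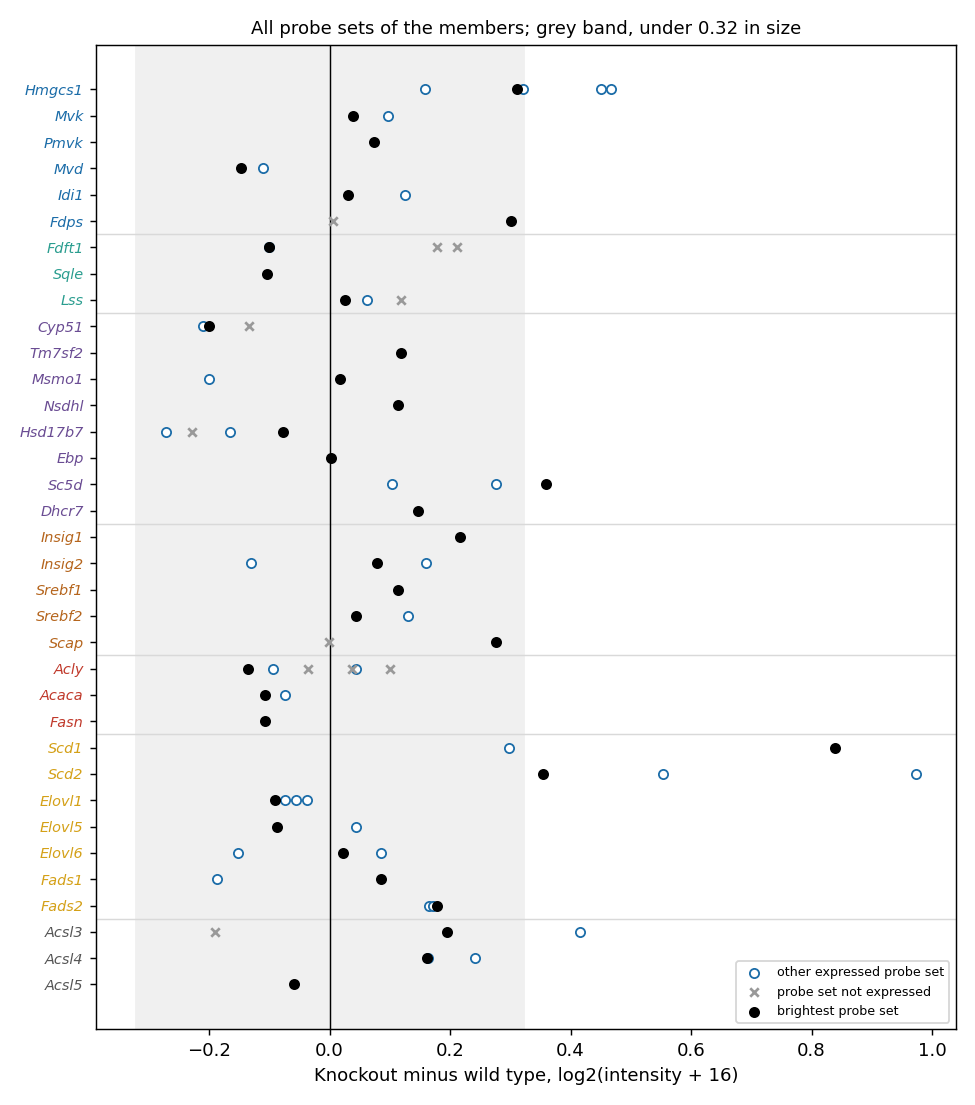
Knockout minus wild type difference (x axis, log2(intensity + 16)) of all 82 probe sets of the 35 members: black points are the probe sets used, open circles other expressed probe sets and grey crosses probe sets below the expression level. The grey band marks differences under 0.32 in size, and all probe sets of Hmgcs1, Sc5d, Scd1 and Scd2 lie above 0. Of the 71 expressed probe sets of the members, 8 lie above the band (11.3%, against 5.60% over all genes) and none below it. Those 8 belong to Hmgcs1, Sc5d, Scd1, Scd2 and Acsl3 only.

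The elongases and the front-end desaturases, which lengthen and desaturate longer chains, differed far less than Scd1 and Scd2. Fads2, the desaturase that starts the route to polyunsaturated fatty acids, read 618 in wild type and 701 in the knockout (0.18). Its 3 probe sets gave 0.17 to 0.18, the closest repeat among members with 3. Fads1, the next desaturase, was at 0.085 on its brighter probe set and -0.19 on its dimmer. Elovl1, an elongase of very long saturated chains, was lower on all 4 probe sets, from -0.090 to -0.037, and turned to 0.083 under poly-A centring. Elovl5 (-0.088 and 0.043), an elongase of polyunsaturated chains, and Elovl6 (0.022, with probe sets from -0.15 to 0.086), which lengthens palmitate, had probe sets on both sides of 0.

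Acyl-CoA synthetases, which activate fatty acids for use, were represented by 3 genes. Acsl4, which prefers arachidonate, read 468 in wild type and 526 in the knockout (0.16), and its 3 probe sets were all higher, up to 0.24. Acsl3 read 312 and 359 (0.20) on its brightest probe set and 87.7 and 122 (0.42) on the next. Another probe set of Acsl3, below the expression level, gave -0.19. Acsl5 read 2946 and 2827 (-0.059) and turned to 0.11 under poly-A centring.

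Probe sets of 1 gene gave the only repeat measurements. Of the 71 expressed probe sets of the members, 46 were higher and 25 lower (64.8% higher, against 53.6% of the 19482 expressed probe sets of all genes). By at least 0.32, 8 were higher (11.3%, against 5.60%) and none lower (455 of the 19482). Those 8 belong to Scd2 (all 3 of its probe sets), Hmgcs1, Sc5d, Scd1 and Acsl3 only, so they are not 8 separate genes. Of the 23 members with at least 2 expressed probe sets, 17 had 1 sign throughout (73.9%, against 51.9% of 5017 genes). Of the 10 with at least 3, 7 did (70%, against 38.02% of 2133 genes): Hmgcs1, Hsd17b7, Sc5d, Scd2, Elovl1, Fads2 and Acsl4. Probe sets of a gene share the RNA and the array, so agreement between them says nothing of the next culture.

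Other genes of lipid handling, from a list written with the member roles, had a median near that of all genes. Of 39 listed, 33 were measured and 28 expressed, with 17 above 0, 11 below and a median of 0.014. By the probe set used for each gene, only Abca1, the pump that exports cholesterol from cells, differed by at least 0.32. It read 98.6 in wild type and 135 in the knockout (0.39) on its 1 expressed probe set. Scarb1, the receptor that takes up sterol from high-density lipoprotein, read 1275 and 1442 (0.17), and its 3 probe sets gave 0.17 to 0.25. Lbr, a nuclear membrane protein with sterol reductase activity, read 6748 and 7820 (0.21), and Ggps1, which makes geranylgeranyl diphosphate, stood at 0.049. The proteases Mbtps1 and Mbtps2, which cleave SREBP, stood at -0.00068 and -0.047. Other expressed probe sets of Mbtps1 gave 0.0020 and, near the expression level, 0.47 (30.7 in wild type and 48.7 in the knockout). Npc2, from the sterol uptake list, stood at 0.073, and its dimmest expressed probe set at 0.43 (132 in wild type and 184 in the knockout). Another probe set of Npc2, below the expression level, gave -0.26. Nr1h3, the sterol sensor LXR alpha, was not expressed on either array (27.4 and 27.6).

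Acss2, which makes acetyl-CoA from acetate, read 177 in wild type and 205 in the knockout (0.19), and Tecr, the reductase of chain elongation, read 2611 and 3019 (0.21). Mid1ip1, an activator of acetyl-CoA carboxylase, stood at 0.10 and the citrate carrier Slc25a1 at 0.019. Of 9 genes of fatty acid oxidation, the route that breaks chains down, 3 were above 0 and 6 below as deposited, with a median of -0.037 that becomes positive under either spike-in centring. Hadhb, a subunit of the mitochondrial trifunctional protein, was the lowest, with 1211 and 1009.0 (-0.26), whereas Acadl, a long-chain dehydrogenase, read 1589 and 1853 (0.22). The plot of differences by role sets these groups side by side.

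**Figure D4:**
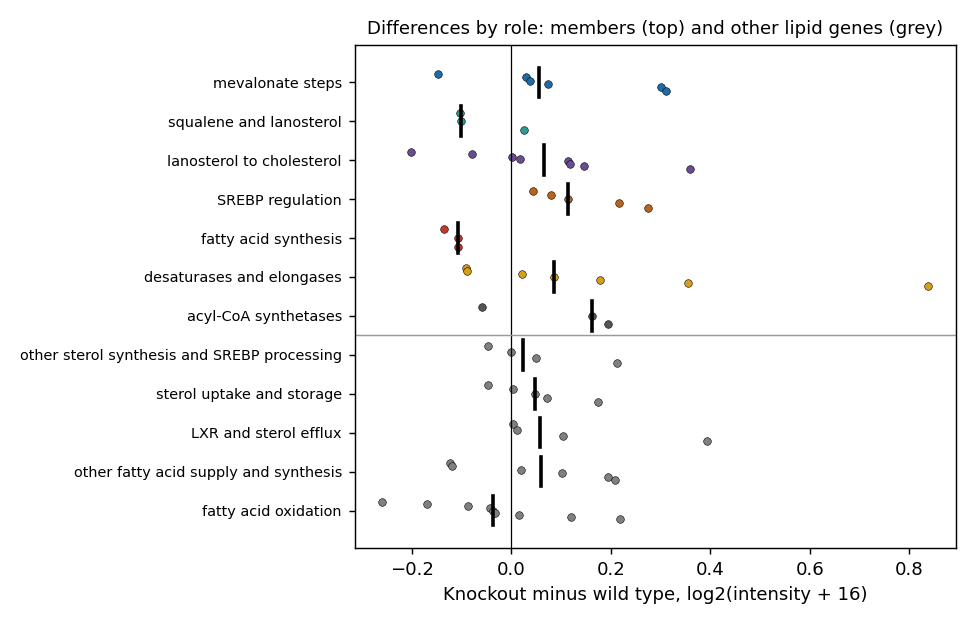
Knockout minus wild type difference (x axis, log2(intensity + 16)) of each expressed gene by role, members in colour above the grey line and other lipid genes in grey below it; black bars are group medians. As deposited, medians run from -0.11 for the 3 fatty acid synthesis genes, which turns to 0.00035 or 0.065 under spike-in centring, to 0.16 for the acyl-CoA synthetases, and Scd1 lies far to the right of all others.

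Markers of several other blood cells had larger differences than most members, and their part in the lipid values was not tested. In bulk RNA, fewer cells of a type and less RNA per cell cannot be told apart. All 8 measured mast cell and basophil markers were expressed and lower, with a summed intensity of 6124 in wild type and 4120.1 in the knockout. Of 7 megakaryocyte and platelet markers, 6 were lower and Itgb3 was higher (sums of 2020.2 and 1299). Of 5 eosinophil markers, 3 were lower, Siglecf was higher and 1, Il5ra, was not expressed (sums of 1222 and 997). Of 11 monocyte and macrophage markers, 9 were expressed, 7 of them higher and 2 lower, with sums of 5227 and 6024. In that list Apoe read 156 and 473, while Mrc1 and C1qa were not expressed on either array. The 4 expressed of 6 dendritic cell markers had 1 higher and 3 lower (sums over the list of 1162 and 1002). The 3 expressed of 4 measured B cell markers had 2 higher and 1 lower (862 and 1279). T and NK cell markers (988 and 1275) and erythroid markers (169 and 173) had 2 expressed genes each, 1 higher and 1 lower. The fat-cell and stromal list, checked because Scd1 is abundant in fat cells, had 1 of 5 measured genes expressed (Vcam1). Its defining fat-cell markers Adipoq (8.40 and 9.27) and Fabp4 (15.7 and 12.5) were below the expression level on both arrays.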

How the data were processed

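The authors deposited a linear intensity for each probe set on each of 2 arrays, hybridized with total RNA of cultured neutrophils of either genotype. Per the labels, labelling followed the Affymetrix 3' IVT Express Kit. The sources used here do not state how the intensities were corrected, summarized and normalized. Values were used as deposited, without centring. Of 45101 probe sets, 64 array controls entered no gene value. The platform annotation named 34945 of the others for 1 gene, 932 for several and 9160 for none, and only the first entered. Symbols were updated through Entrez identifiers with RefSeq genes (GRCm38.p6).

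Differences were computed as log2(deposited intensity + 16), knockout minus wild type, from the probe set with the highest mean. Differences of at least 0.32 (25% upwards) and of 1.5-fold were counted, with no test, p-value or SE. The members, roles, other lipid genes and markers were chosen with earlier results of these data known. All measured members and other lipid genes could be named, with full values for members past 0.32 or among the 3 most intense. Choosing which others to give in full, the sequences shown and the marker genes named was done after values were seen. Settings also tried were pseudocounts of 1 and 64, centring on array medians or spike-ins, quantile normalization, loess (span 0.3), the mean or second brightest probe set, leaving out shared-suffix probe sets, and an expression filter at the 75th percentile or none. The procedure was tested on simulated data. Motif searches covered both strands of 250 bases before RefSeq gene starts. Python 3.11.15, pandas 2.3.3 and statsmodels 0.14.6 were used.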

Additional observations from a re-analysis of the deposited data

How the results depend on the processing

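Of the 35 members, 18 were above 0 under all of the 13 settings in which they had a value. Only 1, Cyp51, was below 0 under all of them, and 16 changed sign at least once. A change of pseudocount or filter cannot turn the sign of a probe set's difference, so these counts rest on the other settings. Of those, spike-in centring adds 0.11 or 0.17 to every gene, so it can turn a negative difference positive but not the reverse. Under it 78.0% or 88.7% of all expressed genes were above 0. The split of 18 and 1 is thus partly set by that choice, and the same count over all expressed genes was not made. Spike-in centring had the largest effect on counts. By at least 0.32 it gave 7 higher members with hybridization controls and 10 with poly-A controls, in place of 3. Under poly-A centring the median of all members was 0.22. Group medians were then 0.23 for mevalonate steps, 0.073 for squalene and lanosterol, 0.24 for lanosterol to cholesterol, 0.29 for SREBP regulation, 0.065 for fatty acid synthesis, 0.26 for desaturases and elongases and 0.34 for acyl-CoA synthetases. This follows from the constant added to every gene. The mean of probe sets turned the squalene and lanosterol median to 0.047, where Fdft1 includes unexpressed probe sets, and that of desaturases and elongases to -0.015. The second probe set, available and expressed for 23 members, turned the median from lanosterol to cholesterol to -0.18 over 4 genes. With it 0 members were at least 1.5-fold higher, as with the filter at the 75th percentile, which left out Scd1. The members higher by at least 0.32 were Sc5d, Scd1 and Scd2 under both other pseudocounts, median centring, quantile normalization, loess and no filter. They were Hmgcs1, Scd1 and Scd2 with the mean of probe sets, and Hmgcs1, Scd2 and Acsl3 with the second one. Without shared-suffix probe sets Acsl3 joined them, and at the 75th percentile Sc5d and Scd2 were left. No setting put a member lower by 0.32 or more. No paired analysis was possible because each genotype has 1 array, and for the same reason no array could be left out.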
